A study of Rattus norvegicus with 20 samples.

Results

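Equilin is a horse estrogen and a component of the conjugated equine estrogens used in hormone therapy. It resembles estrone but carries an additional double bond in ring B of the steroid. Its effect on the mesenteric artery was taken from 3 arrays of rats given equilin and 4 arrays of rats given vehicle, which were chosen by their sample titles and make up 7 of the 20 arrays of the series. All animals were female Sprague Dawley rats whose ovaries had been removed at 4 weeks of age, so that every group, the vehicle group included, lacked ovarian hormones. After 2 weeks of recovery they were gavaged daily for 3 weeks, and arteries were taken at 9 weeks of age. Vehicle was 20% 2-hydroxypropyl-β-cyclodextrin, and equilin was given at 0.15 mg/kg per day. Rats given ethinyl estradiol (3 arrays) or estradiol benzoate (3 arrays) at the same dose of 0.15 mg/kg per day served for comparison with other estrogens, and the remaining 7 arrays came from rats given tamoxifen or raloxifene. Each array held RNA of the arterial tree of 1 rat, dissected free of veins and fat, so that smooth muscle, endothelium and adventitia were measured together. The design asks how the artery's gene expression responds to estrogens.

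Estrogens enter cells and bind the nuclear receptors encoded by Esr1 and Esr2, which regulate genes through estrogen response elements in DNA and through other transcription factors. Gper1 encodes a membrane receptor that also answers to estrogens. Mesenteric arteries carry blood to the gut and, through the tone of their smooth muscle, set part of the resistance to blood flow; estrogens are known to affect their relaxation, their matrix and the growth of their smooth muscle. Oral estrogens also act on the liver and on fat, and the outer layer of these arteries lies in mesenteric fat.

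Levels are given as log2 intensities per probe after centring, so that 0 is the array's median, and a change is the equilin mean minus the vehicle mean on that scale. Each gene is measured by its own probes, whose levels cannot be set against those of another gene. The words passed, rose and fell are kept for probes whose Benjamini-Hochberg adjusted p from limma was under 0.05 over all 24227 probes tested. Of these, 13324 carried 1 gene symbol, for 10225 genes. The arrays of the series fell into 2 sets that no label names. The 10 arrays of 1 set, with deposited medians of 1.0408 or more, were vehicle array 1 and all 9 estrogen arrays, and the other 10, whose medians reached at most 1.015, included vehicle arrays 2 to 4. The sets also differed in 384 unnamed, regularly spaced probes, whose median was 0.90 on vehicle array 1, 0.94 to 1.84 on the equilin arrays and -2.18 to -1.89 on vehicle arrays 2 to 4. For some of the genes named, changes are therefore given also against vehicle array 1 alone. They come from a fit with the array set as a term, in which this lone control is assumed to vary like the other arrays. One array outside the comparison, raloxifene replicate 3, correlated with the other 19 at 0.845 on average, below every other array (0.924 to 0.966), and it enters the estimate of the spread.

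With all 4 vehicle arrays, 183 probes with a symbol passed (1.37% of 13324), for 168 genes. Of these probes, 45 rose under equilin (0.338%) and 138 fell (1.04%). They stood for 32 and 136 genes, and 10 of the 45 were probes of the gene Pc. Every equilin array lay above every vehicle array in 5.62% of the 13324 probes and below in 26.0%. The median change of all probes tested was -0.175 and that of all genes, each by its brightest probe, was -0.254, so that a small negative change is no departure from the rest. Quantile normalisation moved the median of all probes to -0.016 and the split to 62 higher and 45 lower. The count rested on few arrays. It was 0 without equilin array 2 (1887 probes at an unadjusted p under 0.05), 14 without equilin array 3, 42 without vehicle array 3 and 40 without vehicle array 4, and it was 329 without vehicle array 1 and 492 without vehicle array 2. Without raloxifene replicate 3 it was 1543, and these included all 183. Against vehicle array 1 alone, 68 probes passed (0.51%), 63 of them higher (0.473%) and 5 lower (0.0375%). Probes that passed in both comparisons numbered 21, which is 11.5% of the 183 and 30.9% of the 68, and 18 of them were higher and 3 lower; the comparisons share the equilin arrays and vehicle array 1.

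Genes that feed and carry out fatty acid synthesis were among those that rose most. Me1 encodes the cytosolic malic enzyme, which turns malate into pyruvate and yields NADPH for fatty acid synthesis. Its probe with the larger change read 3.16, 4.08 and 3.04 on the equilin arrays and 1.41, 1.58, 2.01 and 1.45 on vehicle arrays 1 to 4. All equilin arrays lay above all vehicle arrays. The change was 1.82 ± 0.26 (SE, n = 3 and 4; adjusted p = 0.00743), or 3.52-fold on this offset scale, and against vehicle array 1 alone it was 2.02 ± 0.41 (adjusted p = 0.0259). The other Me1 probe rose by 1.55 and passed in both comparisons too. Of the 13 genes tested that supply carbon and NADPH, Me1 was the only one whose brightest probe passed, and none fell. By brightest probe, 0.244% of the 10225 genes rose and 1.15% fell. Their median change was 0.69, against -0.254 for all genes, and in 7 of the 13 every equilin array lay above every vehicle array, against 4.79% of all genes. Acly, which splits citrate into the acetyl-CoA used for lipids, changed by 1.06 without passing (adjusted p = 0.116), and Slc25a1, which exports citrate from mitochondria, by 0.70 (adjusted p = 0.191).

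Pc encodes pyruvate carboxylase, the mitochondrial enzyme that makes oxaloacetate from pyruvate. The array carried 26 tested probes for it, which read 1 gene in the same rats and are not independent. All 26 had a positive change, from 0.30 to 1.66. Of these, 10 passed with all vehicle arrays and 4 against vehicle array 1 alone, while the brightest did not pass (1.05, adjusted p = 0.0870). The probe with the smallest p read 5.07, 5.45 and 5.13 under equilin and 3.70, 4.17, 4.36 and 3.90 under vehicle. These arrays did not overlap, and the change was 1.18 ± 0.20 (adjusted p = 0.0127). Entry of pyruvate into mitochondria was represented by Mpc1, a subunit of the mitochondrial pyruvate carrier. Mpc1 read 6.05, 6.40 and 5.96 under equilin and 5.02, 5.04, 5.40 and 5.25 under vehicle. It rose by 0.95 ± 0.16 (adjusted p = 0.0118) and by 1.11 against vehicle array 1 (adjusted p = 0.0400). Pdk1, a kinase that switches pyruvate dehydrogenase off, rose by 0.82 (adjusted p = 0.0226), with a change of 0.86 against vehicle array 1. By brightest probe, Mpc1 and Pdk1 were the 2 of 33 glycolysis and pyruvate genes that passed. Without vehicle array 1, 2 rose and 1 fell, and without raloxifene replicate 3, 3 rose and 2 fell. Probes of Hk1, a hexokinase of glycolysis, and Slc16a3, a lactate carrier, fell with all arrays and are not in this count. The list's median was -0.03, and -0.25 for all genes.

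Among the 17 genes of fatty acid synthesis, elongation and desaturation, 3 rose and 2 fell, with a median of -0.11. With quantile normalisation 3 rose and none fell, and the median was 0.01. Acaca encodes acetyl-CoA carboxylase, which commits acetyl-CoA to fatty acid synthesis. It read 6.87, 6.94 and 6.50 under equilin and 4.92, 5.39, 5.69 and 5.47 under vehicle, with no overlap, and rose by 1.40 ± 0.31 (adjusted p = 0.0418). The change of Acaca against vehicle array 1 alone was 1.85. Scd, a desaturase that makes monounsaturated fatty acids, read 6.61, 6.84 and 6.42 under equilin and 3.88, 5.36, 5.98 and 5.43 under vehicle. Vehicle array 1 was the lowest by a wide margin, and the change was 1.46 ± 0.33 with all vehicle arrays (adjusted p = 0.0425) and 2.74 ± 0.30 against that array alone (adjusted p = 0.000442). Elovl6, which extends palmitate, read 2.20, 2.75 and 2.01 under equilin and 0.43, 0.58, 1.10 and 0.42 under vehicle. The arrays were apart and the rise was 1.69 ± 0.37 (adjusted p = 0.0382), with a further probe at 1.60 that also passed. Against vehicle array 1 alone these probes changed by 1.89 and 1.84. Fasn, the fatty acid synthase itself, read 7.11, 7.44 and 7.14 under equilin and 5.23, 5.75, 6.33 and 5.82 under vehicle. Although these arrays did not overlap and the change was 1.44, the fitted error of 0.71 left an adjusted p of 0.261; the error is shared with all groups, and 1 estradiol benzoate array read 2.06. The 2 that fell were Scd2, another desaturase (-0.87, adjusted p = 0.0337; its other probe 0.28), and Hacd1, a dehydratase of the elongation cycle (-1.15, adjusted p = 0.0372). Of 15 regulators of lipogenesis, Thrsp alone passed. Thrsp encodes a nuclear protein that accompanies lipogenesis in fat and liver, and it rose by 0.81 ± 0.18 (adjusted p = 0.0385).

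**Figure D1:**
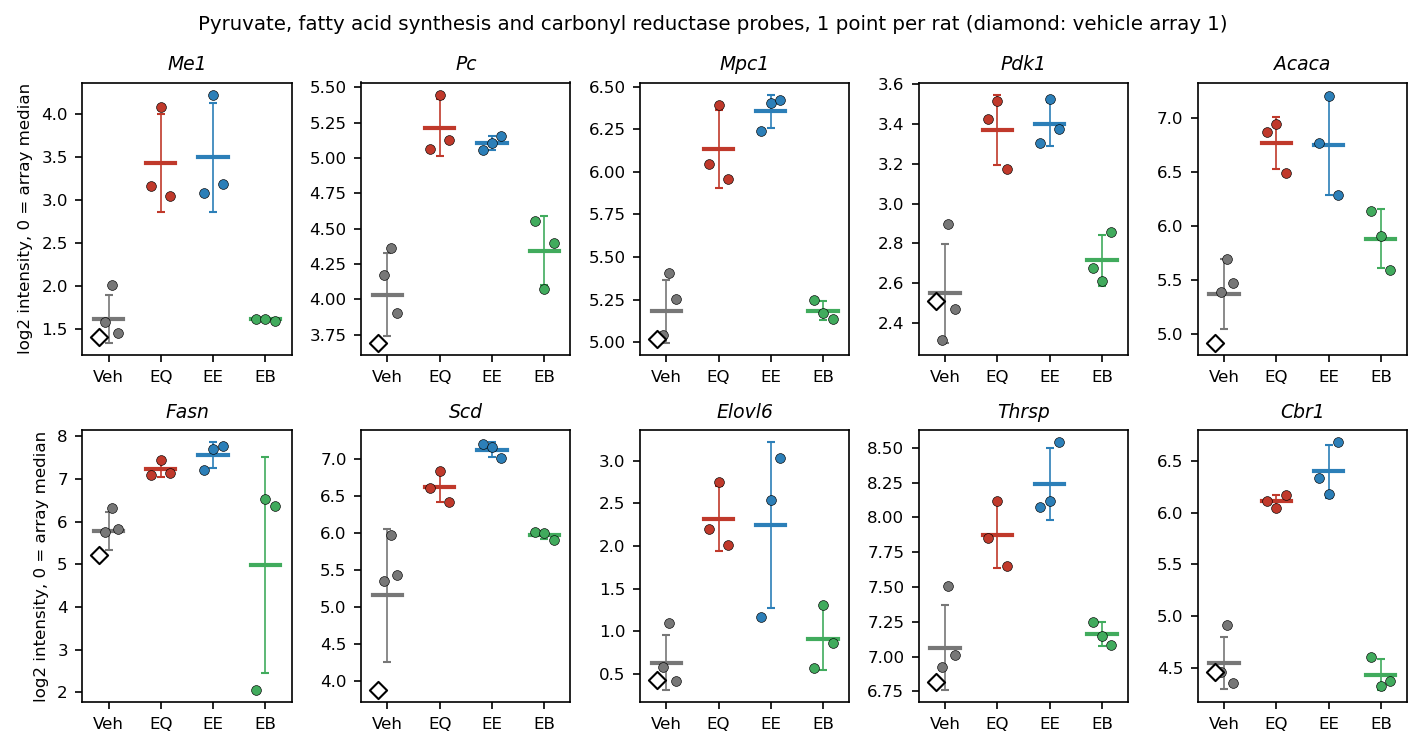
Log2 intensity (0 = array median) of 10 probes in each rat given vehicle (Veh), equilin (EQ), ethinyl estradiol (EE) or estradiol benzoate (EB), with the group mean (bar) and SD. The equilin points lie above all vehicle points for each of the 10 probes, and the open diamond marks vehicle array 1, the lowest vehicle array for Scd (3.88) and Acaca (4.92).

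Adipocyte markers were higher under equilin too. The mean log2 level of 17 adipocyte markers was 3.83 to 3.87 on the equilin arrays and 3.37 to 3.67 on the vehicle arrays, with no overlap, and their median change was 0.32. None of the 17 passed, with Adipoq at 0.46 and Fabp4 at 0.32, and none had a deposited intensity at or below 0 on any of these arrays. On the ethinyl estradiol arrays the adipocyte markers were at 3.43 to 3.65, within the vehicle range. There the carbon and NADPH list was at 4.01 to 4.62, where vehicle was at 3.45 to 3.81. Under estradiol benzoate the 2 lists were at 3.51 to 3.67 and 3.57 to 3.71. The part of fat cells in the lipogenic results was not tested. In such bulk samples a change in the number of cells of a type cannot be told apart from a change in RNA per cell. No gene of triglyceride and phospholipid assembly (21), fatty acid oxidation (23), lipid droplets and lipolysis (15) or sterol synthesis and uptake (16) passed, and their medians were -0.14, 0.07, 0.11 and -0.11.

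Cbr1, a carbonyl reductase of ketones and quinones, was among the highest risers. It read 6.11, 6.05 and 6.17 under equilin and 4.46, 4.46, 4.92 and 4.35 under vehicle. The equilin arrays lay closely together and far above the vehicle arrays. The change was 1.56 ± 0.24 (adjusted p = 0.00743), and 1.64 against vehicle array 1 alone. It was the 1 member that passed of 33 genes of xenobiotic oxidation and carbonyl reduction. Cyp2e1, an ethanol-oxidising cytochrome picked out after its values were seen, differed by 2.01 without passing (adjusted p = 0.0680). The vehicle arrays ranged from -0.45 to 1.33.

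No estrogen receptor gene passed. Esr1 read -0.64 to -0.40 under equilin and -0.87 to -0.22 under vehicle, a difference of 0.02 ± 0.21 (adjusted p = 0.963). Esr2 changed by 0.09 ± 0.14 and Gper1 by -0.45 ± 0.27, and the groups overlapped for these probes; a second Esr2 probe was at 0.40 without passing. None of the 25 estrogen receptor and estrogen-responsive genes tested passed. The arrays of 6 lay apart above and of 5 apart below, where 4.79% and 29.0% of all genes did. Without raloxifene replicate 3, 3 of the 25 rose and 2 fell, and with quantile normalisation 1 rose. Oxtr, the oxytocin receptor and an estrogen-induced gene in the uterus, read 0.32, 0.46 and 0.56 under equilin and -0.36, -0.30, -0.56 and -0.91 under vehicle. The groups were apart, and the change was 0.98 ± 0.24 (adjusted p = 0.0570). Pgr, the progesterone receptor and another classical target, changed by 0.44 ± 0.16 (adjusted p = 0.139). The letters of a full estrogen response element, GGTCA and TGACC with any 3 bases between them, searched on both strands from 250 bases before to 50 bases after each RefSeq gene start (GRCr8), were present in 9 of 33469 promoters (0.027%). They were in none of the 8483 tested genes with a promoter in the table, which says only that these letters were not in this window.

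Enzymes that handle steroids moved singly. Hsd17b2 oxidises estradiol to the weaker estrone. It read -0.74, -0.74 and -0.72 under equilin and -2.40, -1.55, -1.53 and -1.65 under vehicle. Vehicle array 1 was well below the other vehicle arrays, and the rise was 1.05 ± 0.19 (adjusted p = 0.0196) with all of them and 1.67 ± 0.22 (adjusted p = 0.00147) against that array. Hsd11b2, which inactivates corticosterone and so shields the mineralocorticoid receptor, fell by 1.01 ± 0.23 on the log2 scale (adjusted p = 0.0442). Its change was -0.68 against vehicle array 1 alone. The receptor gene Nr3c2 itself changed by -0.62 (adjusted p = 0.0708) and the glucocorticoid receptor Nr3c1 by 0.15. These 2 enzymes were the members that passed of 23 steroid genes, whose median change was -0.40. Without raloxifene replicate 3, 3 rose and 5 fell.

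Several genes of cell division fell under equilin. Top2a encodes the topoisomerase that untangles chromosomes, and Mki67 the proliferation marker Ki-67. Top2a read -0.15, -0.30 and 0.04 on the equilin arrays and 0.94, 1.40, 1.39 and 1.21 on the vehicle arrays, and Mki67 read -0.11, -0.41 and -0.37 against 0.65, 1.09, 1.28 and 1.09. Neither gene's groups overlapped, and vehicle array 1 was the lowest vehicle array for both. Top2a fell by 1.37 ± 0.20 (adjusted p = 0.00743) and Mki67 by 1.32 ± 0.30 (adjusted p = 0.0425). Against vehicle array 1 alone they changed by -1.08 and -0.94, and Pbk, named below, by -0.59. Of 39 mitosis genes tested, 8 fell and none rose, where 1.15% of all genes fell, and their median change was -0.51. The arrays of 22 lay apart below and of 3 apart above, against 29.0% and 4.79% of all genes. Besides Top2a and Mki67 the 8 were Pbk (-1.37), a mitotic kinase, Cks2 (-1.18), a partner of cyclin-dependent kinases, Nusap1 (-1.13), a spindle protein, Ccna2 (-0.87), a cyclin, Racgap1 (-0.80), which acts in cytokinesis, and Cenpw (-0.74; another probe -0.58), a centromere protein. With quantile normalisation 4 of the 39 fell and 1 rose, without vehicle array 1, 9 fell and none rose, and without raloxifene replicate 3, 14 fell and 3 rose. Against vehicle array 1 alone none passed, with a median of -0.39 and -0.196 for all genes. Of 22 DNA replication genes only Mcm10, which helps start replication, fell (-1.66 ± 0.34, adjusted p = 0.0331), and the list's median was -0.34. The dim Mcm10 probe read -1.45, -1.70 and -3.03 under equilin and -0.39, -0.67, -0.29 and -0.23 under vehicle. In the other settings run its change ranged from -2.17 to -0.87.

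The promoters of 3 of the 8 mitosis genes that fell are shown for the motifs that such genes are known to share, the CCAAT box and the cell cycle homology region (CHR). Sequences are from RefSeq on GRCr8, read on the gene's strand from 250 bases before to 50 bases after the gene start. Capitals mark CCAAT or its reverse complement ATTGG, and TTTGAA or its reverse complement TTCAAA. Top2a lies at chr10:84473044-84473343, Mki67 at chr1:199952544-199952843 and Cks2 at chr17:13727470-13727769, all on the minus strand.
Top2a: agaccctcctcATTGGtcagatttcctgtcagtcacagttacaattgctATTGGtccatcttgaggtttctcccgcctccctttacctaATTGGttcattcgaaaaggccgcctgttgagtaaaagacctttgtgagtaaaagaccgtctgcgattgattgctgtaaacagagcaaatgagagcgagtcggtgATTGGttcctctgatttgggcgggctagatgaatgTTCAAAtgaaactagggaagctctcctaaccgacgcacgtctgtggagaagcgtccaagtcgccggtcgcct
Mki67: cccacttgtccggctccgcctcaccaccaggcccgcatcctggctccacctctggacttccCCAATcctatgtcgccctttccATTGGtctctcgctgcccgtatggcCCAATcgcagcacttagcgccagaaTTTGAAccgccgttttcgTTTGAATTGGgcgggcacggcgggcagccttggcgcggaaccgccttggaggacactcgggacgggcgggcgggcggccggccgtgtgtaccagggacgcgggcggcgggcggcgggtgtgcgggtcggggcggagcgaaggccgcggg
Cks2: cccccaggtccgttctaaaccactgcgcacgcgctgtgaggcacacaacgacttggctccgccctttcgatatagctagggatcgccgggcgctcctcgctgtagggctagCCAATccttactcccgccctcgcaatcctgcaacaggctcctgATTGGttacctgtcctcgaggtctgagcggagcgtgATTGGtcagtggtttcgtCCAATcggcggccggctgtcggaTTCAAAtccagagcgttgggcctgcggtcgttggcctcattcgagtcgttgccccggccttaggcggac
Each of the 3 held 4 CCAAT boxes, and Top2a and Cks2 held 1 CHR and Mki67 2, of which 1 overlaps a CCAAT box. Among the rest of the 8, Nusap1 held 2 CCAAT boxes and Cenpw none, each with 1 CHR, so the 3 shown do not stand for the rest. Further genes of cell division, not counted in the 8, had a probe that fell. Of these, Aspm held 4 CCAAT boxes and 1 CHR, Cdk1 3 and 2, and Spag5 and Tacc3 2 and 1 each. The CHR began 22 bases before the start in Top2a and 19 bases before it in Cks2, written as -22 and -19, and the nearest CCAAT box at -57 and -42. CCAAT on either strand was present in 41 of the 54 mitosis and replication genes with a promoter in the table (75.9%), in 37.4% of the 8483 tested genes and in 37.5% of all 33469 promoters. TTTGAA was present in 24 of the 54 (44.4%), in 11.3% of tested genes and in 18.3% of all promoters. Of the 6 members of these 2 lists that fell by brightest probe and had a promoter in the table, 5 held each motif. A match describes the letters only; these genes are known for such motifs whatever their change here.

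The extracellular matrix of the artery wall, laid down by smooth muscle cells and adventitial fibroblasts, was represented by 4 lists. In each of them the members that passed were lower, and by brightest probe 1.15% of all genes fell. The medians of collagen chains and of collagen processing were -0.40 and -0.42 against vehicle array 1 alone. Those of the glycoprotein and protease lists were both -0.50, and that of all genes was -0.196. Of 19 collagen chains 3 fell, Col5a2 (-1.12, adjusted p = 0.0342), Col18a1 (-1.01, adjusted p = 0.0202) and Col14a1 (-0.76, adjusted p = 0.0342), and the list's median was -0.65. With quantile normalisation 1 fell, and without raloxifene replicate 3, 6 fell. Col1a1, the main chain of type I collagen, had 2 probes. One read 3.07, 2.72 and 3.01 under equilin and 4.23, 4.44, 4.41 and 4.53 under vehicle, and fell by 1.47 ± 0.19 (adjusted p = 0.00490). The other, brighter one changed by -0.81 (adjusted p = 0.101), and both probes had groups that did not overlap. Of 21 genes that process or cross-link collagen, Pcolce, which enhances procollagen cleavage, fell by 0.94 (adjusted p = 0.0250).

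Of 35 elastic fibre, glycoprotein and proteoglycan genes 3 fell, with a median of -0.39, and without raloxifene replicate 3, 13 fell. Tnc encodes tenascin-C, a glycoprotein of remodelling tissue. Its probe with the smaller error read 0.07, -0.15 and -0.38 under equilin and 0.74, 1.30, 1.63 and 1.72 under vehicle, and it fell by 1.50 ± 0.24 (adjusted p = 0.00743), with the other probe at -1.76. Vehicle array 1 lay lowest among the vehicle arrays, and the change against it was -0.90 ± 0.31 (adjusted p = 0.329). The others were Cthrc1 (-1.23, adjusted p = 0.0127), a secreted protein of injured arteries, and Fn1, fibronectin (-0.79, adjusted p = 0.0482), of which a further probe was at 0.37.

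Of 26 matrix proteases and their inhibitors 5 fell, with a median of -0.49; with quantile normalisation 2 fell and without raloxifene replicate 3, 10 fell. Cpz encodes carboxypeptidase Z, a secreted enzyme with a Wnt-binding domain. It read 2.16, 2.06 and 2.15 under equilin and 3.53, 3.31, 3.85 and 3.98 under vehicle. All vehicle arrays, array 1 included, were well above the equilin arrays, and the fall was 1.54 ± 0.18 (adjusted p = 0.00303) with all of them and 1.41 ± 0.28 (adjusted p = 0.0259) against array 1. The other 4 were A2m (-1.74), a broad protease inhibitor, Cpxm1 (-1.08), a carboxypeptidase-like protein, Serpine2 (-0.97), which inhibits thrombin and plasminogen activators, and Serpinf1 (-0.72), an inhibitor of vessel growth. Among 23 Wnt genes only Sfrp4, a secreted Wnt antagonist, fell. It read -1.21, -1.10 and -1.01 under equilin and 0.74, 0.62, 0.66 and 0.57 under vehicle. Here the vehicle arrays of both sets agreed closely, and the change was -1.75 ± 0.34 (adjusted p = 0.0220) with all of them and -1.85 ± 0.52 against array 1 (adjusted p = 0.153). Lamc3, a laminin chain of basement membranes, fell by 1.06 (adjusted p = 0.0162) and by 1.30 against array 1 (adjusted p = 0.0355). None of 36 genes of TGF-beta and BMP signalling passed (median -0.22). Fibroblast markers were lower too: the mean level of 13 was 3.24 to 3.37 under equilin and 3.58 to 3.96 under vehicle. None had an intensity at or below 0, and only Col14a1 passed, which is also counted among the collagen chains. The median change of the 13 was -0.35, where that of all genes was -0.254. The arrays of 5 of the 13 lay apart below, where 29.0% of all genes did. The part of fibroblasts in the matrix results was not tested.

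**Figure D2:**
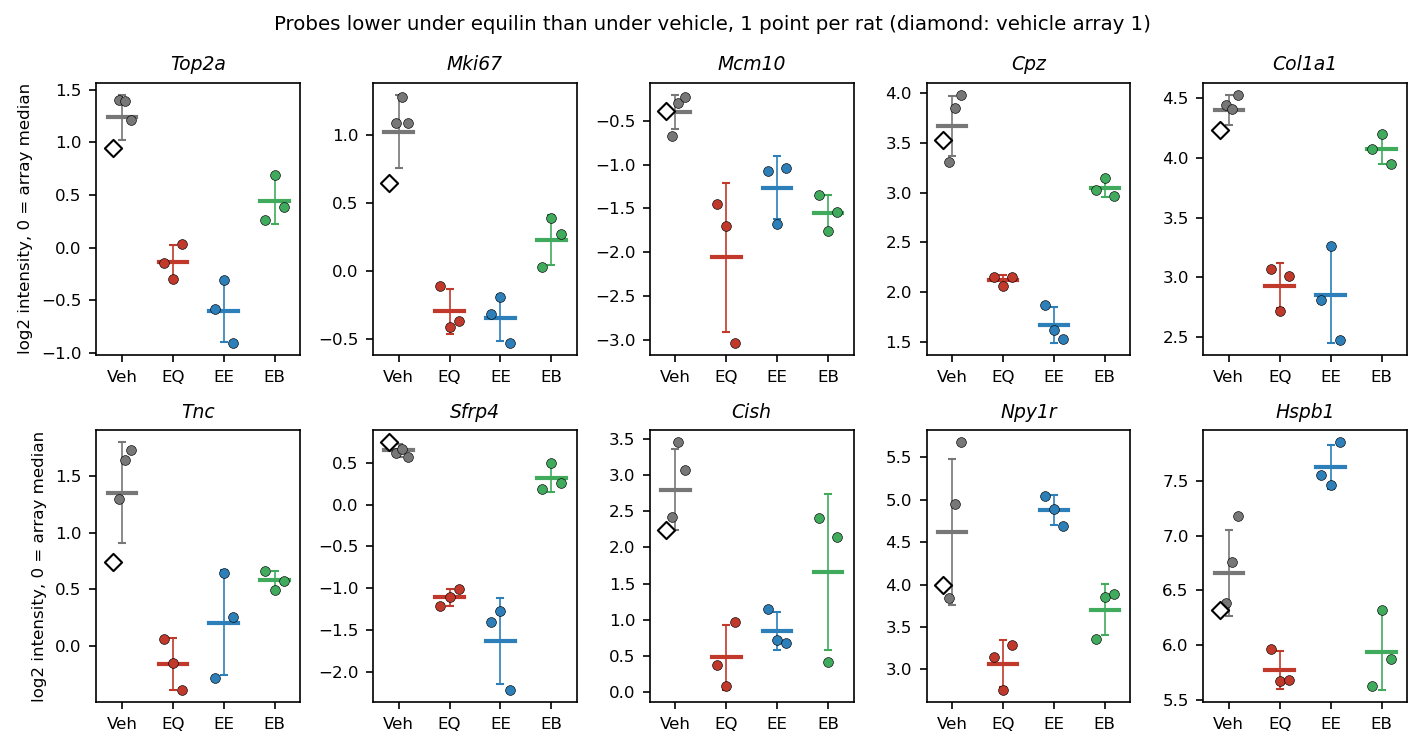
Log2 intensity (0 = array median) of 10 probes that fell under equilin, in each rat, with group means and SD; the groups are vehicle (Veh), equilin (EQ), ethinyl estradiol (EE) and estradiol benzoate (EB), and the diamond is vehicle array 1. Vehicle and equilin points do not overlap for any of the 10, and for Tnc and Mki67 the diamond is the lowest vehicle point.

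The count for the contractile machinery of smooth muscle depended on the arrays used. Of 32 contractile and cytoskeletal genes Pdlim3, an actin-associated protein of muscle, fell (-0.79, adjusted p = 0.0430), and the list's median was -0.28, where that of all genes was -0.254. Without raloxifene replicate 3, 10 of the 32 fell, without vehicle array 1, 5 fell, and with quantile normalisation none did. Myh11, the smooth muscle myosin heavy chain, read 8.02 to 8.30 under equilin and 7.64 to 8.55 under vehicle by its brightest probe, a change of 0.03, while its other probe fell by 1.33. The Acta2 probe read -0.91 to -0.22 and -1.35 to 0.14, near the array median, so that this probe does not mark smooth muscle on these arrays. Of 31 genes of calcium and potassium handling Pln, phospholamban, an inhibitor of the calcium pump of the sarcoplasmic reticulum, fell by 0.89 (adjusted p = 0.0482), and its 2 other probes were at -1.48 and -0.88. Of these 31 genes 9 fell without raloxifene replicate 3, 3 without vehicle array 1 and none with quantile normalisation. The endothelial adhesion gene Pecam1 differed by -0.29 with its brightest probe and by 1.12 with the other, and the endothelial nitric oxide synthase Nos3 by -0.21, none of which passed.

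Receptors and peptides that set vessel tone changed in both directions. Npy1r, the receptor through which neuropeptide Y constricts arteries, read 3.15, 2.76 and 3.29 under equilin and 3.99, 3.84, 4.95 and 5.68 under vehicle. It fell by 1.55 ± 0.34 (adjusted p = 0.0385), but vehicle arrays 1 and 2 were much closer to equilin than arrays 3 and 4, the change against array 1 was -0.93 (adjusted p = 0.736), and a further probe was at -0.03. Nppa, the atrial natriuretic peptide, read 1.47, 1.55 and 1.44 under equilin and 0.21, 0.48, 0.75 and 0.96 under vehicle, and rose by 0.89 (adjusted p = 0.0353) and by 1.28 against array 1 (adjusted p = 0.0286). Ntsr1, a neurotensin receptor, rose by 1.05 (adjusted p = 0.0196), and its change against array 1 was smaller, at 0.63. These 3 passed of 37 vasoactive genes, whose median change was -0.12. Genes of the renin-angiotensin system did not pass: the differences were 0.43 for Agt, -0.46 for Ace (its other probe 0.43) and -0.74 for Agtr1a. Edn1, endothelin, differed by 0.81 (adjusted p = 0.168). Among 27 nitric oxide and prostanoid genes Prkg1, the kinase that acts below nitric oxide and cyclic GMP, fell by 1.31 (adjusted p = 0.0196). Its change against array 1 was -1.19. The arrays of 9 of the 27 lay apart below, where 29.0% of all genes did, and without raloxifene replicate 3, 5 fell. The prostanoid enzymes Ptgs1 (-0.82), Ptgs2 (-1.03) and Ptgis (-0.75) did not pass, with adjusted p of 0.0886, 0.162 and 0.0643; a further Ptgs1 probe was at 0.17.

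Hormone and clock genes gave a few of the lowest values. Cish, a feedback inhibitor that growth hormone and prolactin induce through STAT5, read 0.37, 0.09 and 0.98 under equilin and 2.24, 2.43, 3.45 and 3.07 under vehicle. It fell by 2.32 ± 0.42 (adjusted p = 0.0189), the largest fall of any probe that passed, but its 2 other probes changed by 0.15 and 0.72. Igfbp2, which binds insulin-like growth factors, fell by 1.48 (adjusted p = 0.0494), with a change of -0.89 against vehicle array 1 alone. These were the 2 of 27 genes of the growth hormone and insulin-like growth factor axis that passed, and the list's median was -0.17. Without raloxifene replicate 3, 1 rose and 6 fell. Cry1, a repressor in the circadian clock, fell by 1.53 ± 0.29 (adjusted p = 0.0220), the 1 of 18 clock genes to pass. Per2, picked out after its values were seen, read 1.12, 4.09 and 4.47 under equilin and 4.75 to 5.54 under vehicle, so that its change of -1.99 (adjusted p = 0.0627) rested largely on equilin array 1. Alpl, the tissue-nonspecific alkaline phosphatase, fell by 1.87 (adjusted p = 0.00743), C1qtnf12, a secreted relative of adiponectin, by 1.78 (adjusted p = 0.00743), and Hspb1, a small heat shock protein, by 0.89 (adjusted p = 0.0418). With vehicle array 1 alone as control, Alpl changed by -1.72, C1qtnf12 by -1.33 and Hspb1 by -0.55.

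Of 14 mast cell markers 3 fell, Mcpt10, a mast cell protease (-0.90), Hdc, which makes histamine (-0.79), and Cpa3, the mast cell carboxypeptidase (-0.78), with adjusted p of 0.0380, 0.0475 and 0.0303; with quantile normalisation 1 fell. By brightest probe 1.15% of all genes fell. The mean level of the 14 was 0.76 to 0.95 on the equilin arrays and 1.26 to 1.31 on the vehicle arrays, with no overlap, and none had an intensity at or below 0. Their median change was -0.48 with all vehicle arrays and -0.61 against vehicle array 1 alone. Those of all genes were -0.254 and -0.196. Kit, the receptor that mast cells depend on, changed by 0.41 without passing. No marker of endothelium (16), lymphatic endothelium (7), macrophages and dendritic cells (18), lymphocytes (9), erythroid cells (6), nerve (14), enteric muscle (7) or mesothelium (6) passed by its brightest probe. Probes of the macrophage gene Mpeg1 and the glial gene Gfap fell and are not in these counts. Without raloxifene replicate 3, 2 macrophage and dendritic cell markers, 1 endothelial and 1 mesothelial marker fell, and of nerve 1 rose and 1 fell. With quantile normalisation 1 lymphatic and 1 nerve marker rose. Macrophage and dendritic cell markers were at a mean level of 3.59 to 3.83 under equilin and 3.87 to 4.46 under vehicle. Cxcl9, an interferon-induced chemokine, was the only 1 of 33 interferon response genes to pass (-1.24, adjusted p = 0.0473).

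**Figure D3:**
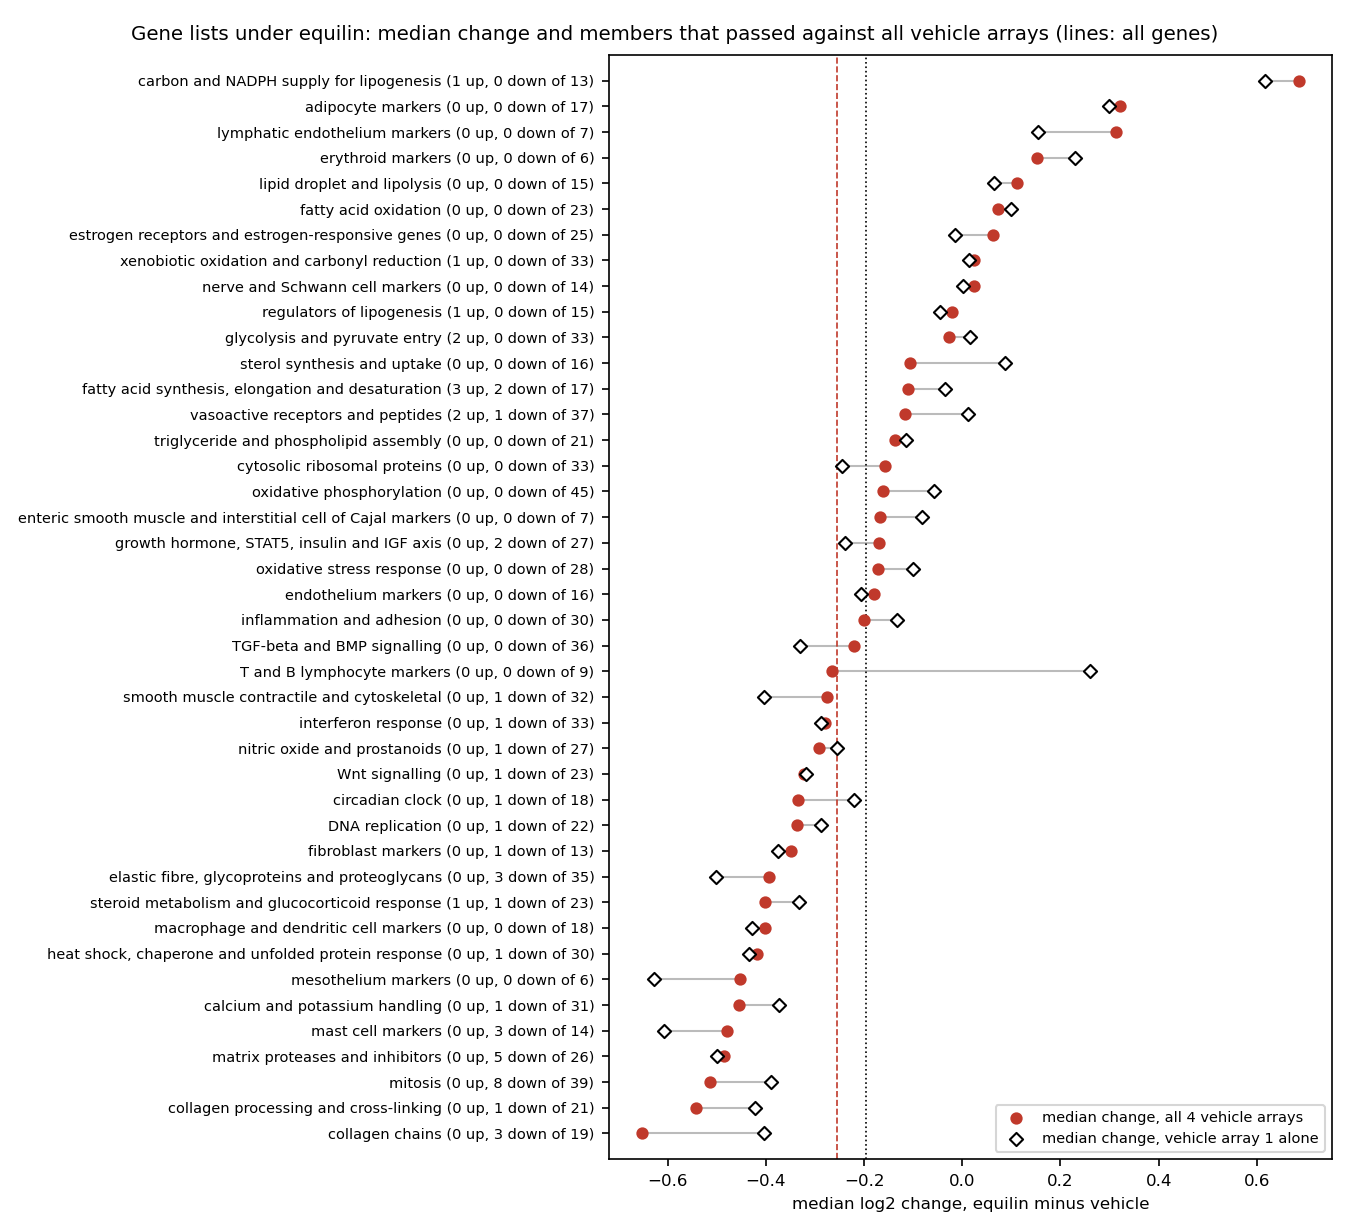
Median log2 change of each gene list, equilin minus vehicle, with all 4 vehicle arrays (filled) and with vehicle array 1 alone (open), and beside each name the members that rose (up) or fell (down) with all vehicle arrays. The dashed and dotted lines are the medians of all genes, -0.254 and -0.196; carbon and NADPH supply stands at 0.69 and collagen chains at -0.65, and the pancreatic acinar markers, at -1.56 and -3.73, are left out.

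Against vehicle array 1 alone the picture was tilted upward. In all 63 probes that passed as higher, this array was the lowest of the 4 vehicle arrays. The 18 that also passed with all vehicle arrays included both Me1 probes, 3 Pc probes, Scd, Mpc1, Hsd17b2, Nppa and the following. Spink5, an inhibitor of serine proteases in epithelia, read 0.96, 1.08 and 0.72 under equilin and -1.50, -0.54, -0.73 and -0.18 under vehicle, with changes of 1.66 and 2.42 in the 2 comparisons (adjusted p = 0.0185 and 0.00595). Tp63, a transcription factor of stratified epithelia, changed by 1.22 and 1.80 (adjusted p = 0.0185 and 0.00403), Spock1, a proteoglycan, by 1.15 and 1.81 (adjusted p = 0.0220 and 0.00311), and Agbl5, a carboxypeptidase of tubulin, by 1.10 and 1.81 (adjusted p = 0.0353 and 0.00403). In each of these the arrays of the groups were apart. The 5 lower were Cpz, Lamc3, Ch25h, Dusp1 and Egr2, of which the first 3 passed with all vehicle arrays too. Ch25h, which makes an oxysterol, changed by -0.93 and -1.46 (adjusted p = 0.0494 and 0.0301). Dusp1 and Egr2, early response genes named because so few were lower, changed by -1.91 and -1.32 against array 1 (adjusted p = 0.0176 and 0.0466), and by -1.13 and -0.79 with all vehicle arrays (adjusted p = 0.0560 and 0.0720). Array 1 was the highest vehicle array for both. It also stood apart in pancreatic acinar genes: the mean level of 16 such markers was 2.87 on vehicle array 1, -1.29 to 1.33 on the other vehicle arrays and -0.78 to -0.46 on the equilin arrays. None of the 16 passed in either comparison, and the part of such tissue in the values against array 1 was not tested.

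**Figure D4:**
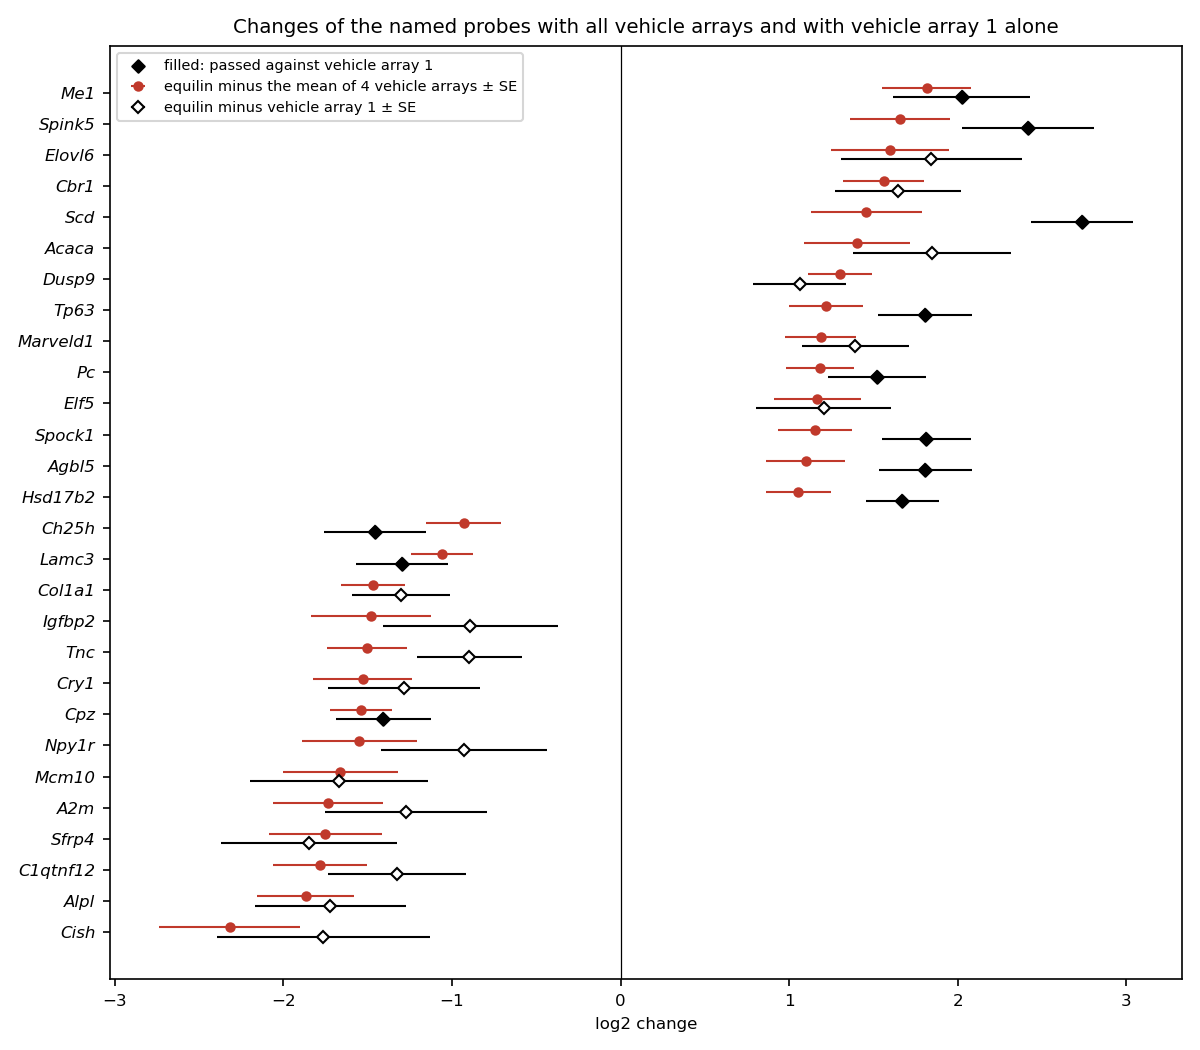
Log2 change ± SE of the probes named as highest or lowest, or as passing in both comparisons, equilin minus the mean of 4 vehicle arrays (circles) and minus vehicle array 1 alone (diamonds, filled where passed). Scd is at 1.46 and 2.74 and Cish at -2.32 and -1.76 in the 2 comparisons.

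At the same dose, equilin was compared with 2 other estrogens. Ethinyl estradiol is estradiol with an ethynyl group that slows its breakdown, and estradiol benzoate is an ester of estradiol; all 3 estrogens were measured on arrays of the same set. Between equilin and ethinyl estradiol 25 probes passed (0.188%), 4 higher and 21 lower under equilin, for 24 genes. Ethinyl estradiol array 3 stood apart from the other arrays of its group: the mean level of the 16 pancreatic acinar markers was 5.65 on it and -0.85 and -1.18 on the others, and its mean correlation with the other 19 arrays was 0.924, the lowest after raloxifene replicate 3. The list's median difference was -1.93, none of its members passed, and the part of such tissue in this comparison was not tested. The count was 1 without equilin array 1 or array 2, 5 without equilin array 3, 2 without ethinyl estradiol array 1 or array 3, 15 without ethinyl estradiol array 2, and 179 without raloxifene replicate 3. When only the 6 arrays of these groups were fitted it was 0, with 2102 probes at an unadjusted p under 0.05. Hspb1 read 5.97, 5.67 and 5.68 under equilin, 7.55, 7.47 and 7.85 under ethinyl estradiol and 6.32 to 7.18 under vehicle. Equilin lay below and ethinyl estradiol above every vehicle array, and the difference was -1.85 with a 95% confidence interval (CI) of -2.30 to -1.40 (adjusted p = 0.00110). Fmo2, a flavin monooxygenase, differed by -2.12 (CI -2.79 to -1.46, adjusted p = 0.0159), and its other probe by -2.11. Map1b, a microtubule protein, differed by -1.82 (adjusted p = 0.0314; its other probe -1.04, not passed), Pln by -1.32 (adjusted p = 0.0235) and Cacna1h, a T-type calcium channel, by -1.19 (adjusted p = 0.0217).

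The 4 higher under equilin were Arsi, a sulfatase (1.43, adjusted p = 0.0389), Pfkl, a phosphofructokinase of glycolysis (1.37, adjusted p = 0.0489; its other probe -0.10), Oxtr (1.33, CI 0.78 to 1.87, adjusted p = 0.0489) and Muc20, a mucin (0.92, adjusted p = 0.0488). Oxtr read -0.54, -0.46 and -1.65 under ethinyl estradiol, where the third array was the lowest. Smooth muscle genes had a median difference of -0.61 between equilin and ethinyl estradiol, against -0.104 for all genes, and 2 of 32 passed, both lower under equilin. None of the lipogenic and mitotic genes passed. Equilin minus ethinyl estradiol was -0.07 for the Me1 probe with the larger change (CI -0.66 to 0.53), -0.50 for Scd (CI -1.24 to 0.24), 0.02 for Acaca (CI -0.69 to 0.72), 0.46 for Top2a (CI 0.01 to 0.91) and 0.05 for Mki67 (CI -0.62 to 0.72), with adjusted p of 0.953, 0.679, 0.991, 0.507 and 0.969. For Scd the interval reaches a difference nearly as large as the change from vehicle.

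Between equilin and estradiol benzoate no probe with a symbol passed in limma (0.0%), with 484 at an unadjusted p under 0.05. In other settings of the same tool 2607 passed with array weights, 5 with quantile normalisation and 3 without raloxifene replicate 3. The smallest adjusted p was 0.0536, for Me1 and Cbr1. Me1 read 1.62, 1.62 and 1.59 under estradiol benzoate, within the vehicle range, and equilin was higher by 1.82 (CI 1.23 to 2.42). Cbr1 read 4.61, 4.33 and 4.37, where vehicle ranged from 4.35 to 4.92, and equilin was higher by 1.67 (CI 1.14 to 2.21). The difference was 0.95 for Mpc1 (CI 0.59 to 1.31, adjusted p = 0.123) and -1.42 for Sfrp4 (CI -2.17 to -0.67, adjusted p = 0.980). Carbon and NADPH supply had a median difference of 0.66 between equilin and estradiol benzoate and -0.10 between equilin and ethinyl estradiol, against -0.090 and -0.104 for all genes; both share the equilin arrays. The missed threshold does not show that equilin and estradiol benzoate act alike.

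**Figure D5:**
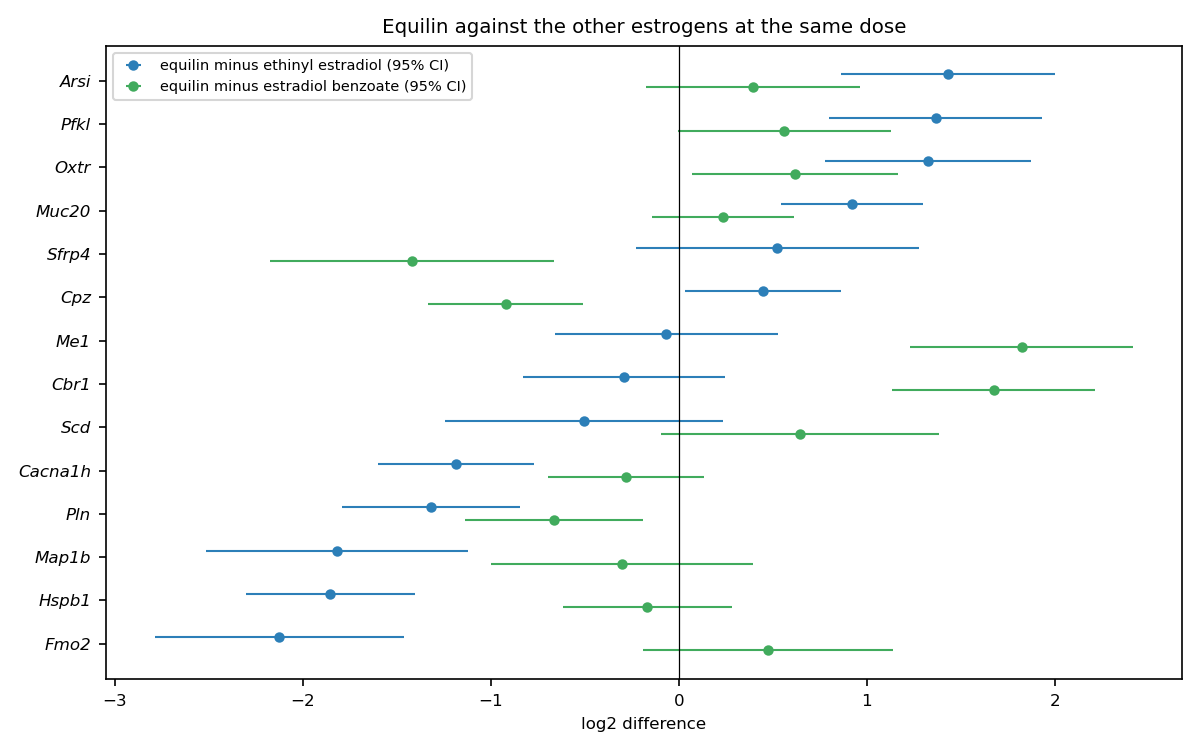
Log2 difference with 95% CI, equilin minus ethinyl estradiol and equilin minus estradiol benzoate, at the same dose, for the probes named in the comparison with ethinyl estradiol and for 5 probes that changed against vehicle. Hspb1 is at -1.85 and -0.17 and the Me1 probe at -0.07 and 1.82 in the 2 differences.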

How the data were processed

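Arrays were single-colour CodeLink rat whole genome arrays, 1 per rat. The deposited values are linear intensities with negative entries and array medians of 1.0007 to 1.0612; how the authors corrected background and scaled them is not stated. Per the labels' protocols and the design text the slides were scanned on a GenePix 4000B with GenePix Pro 5.0, and CodeLink software, Acuity 3.1 and GeneSpring 7.1 were used; no source says which of them produced the table. Vehicle has 4 arrays in the labels and 3 in one sentence of the design text. Of 35129 probes, 16865 have 1 symbol, 165 several and 18099 none in the platform annotation.

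Values at or below 0 were set to 0, 0.103 (0.1 times the median) was added, and log2 values were centred on each array's median; the offset understates changes of dim probes. Left out were 40 probes with several missing values in a group, the lowest 30% by mean, and the regularly spaced unnamed probes. Limma 3.58.1 (R 4.3.3) fitted 6 group means over 20 arrays with a variance trend and Benjamini-Hochberg adjustment over 24227 probes. SE is that of the fit. List counts, medians and levels use the brightest probe of each gene. The members and gene lists were chosen with earlier results of these data known. Named probes are up to 12 highest and 12 lowest that passed with groups apart (1 per gene), up to 3 that passed per list, up to 8 each way that passed in both comparisons, up to 5 each way against each other estrogen, and 28 fixed genes, some of which are not analysed here; other names were picked after their values were seen. Where a gene has several probes, the text states when they disagree. The scripts were tested on simulated data. Alternatives were other normalisation, offsets, filters, variance models and probe sets, an array-set term, a replicate block and leaving out arrays; those combined with the array-set term, and list counts without single arrays, were chosen after seeing the data. The number of arrays limits precision.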

Additional observations from a re-analysis of the deposited data

Results flagged for a closer look

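Among the 4 vehicle arrays, a single array stood apart by Dixon's gap test in 4 of 124 probes and lists tested, where chance gives about 1 in 20. For Hsd17b2, vehicle array 1 read -2.40 against -1.65 to -1.53 on the others. For Cpa3, vehicle array 2 read 2.08 against 2.45 to 2.52. The mean level of the xenobiotic list was 2.52 on vehicle array 3, above the 2.43 to 2.44 of the others, and that of the lymphatic endothelium markers was 2.60 on vehicle array 4, below the 2.91 to 2.92 of the others.

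By limma's test of the difference, equilin was lower than ethinyl estradiol for Fmo2 (-2.12), Hspb1 (-1.85), Map1b (-1.82), Pln (-1.32) and Cacna1h (-1.19). It was higher for Muc20 (0.92), Oxtr (1.33), Pfkl (1.37) and Arsi (1.43). The 5 lower genes had the largest differences among 21 probes that passed as lower. With only the arrays of these 2 groups fitted, 0 probes passed, and without 1 of their arrays 1 to 15 did. Against vehicle, Oxtr and Pfkl differed by 0.98 and 0.80 under equilin without passing, while on the ethinyl estradiol arrays Pfkl read 4.26 to 4.53 against 4.72 to 5.13 on the vehicle arrays.

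The regularly spaced unnamed probes, which enter no comparison, had a median of at least 0.94 on the equilin arrays. On the vehicle arrays it was at most 0.90, on vehicle array 1, which shares the array set of the estrogen arrays. Ethinyl estradiol arrays of that set read 1.41, 0.69 and 0.70, so that its arrays lay on both sides of vehicle array 1.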

How the results depend on the processing

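For equilin minus vehicle (183 probes, 45 higher and 138 lower) the counts were as follows. With vehicle array 1 as the only control 68 passed (63 and 5 in the 2 directions), 73 with quantile normalisation added (70 and 3), 143 without raloxifene replicate 3 (123 and 20), and 51 in a fit of the set's arrays alone (44 and 7). Quantile normalisation gave 107, of which 45 lower, no centring gave 81 lower, and no filter on dim probes gave 85 (27 and 58). Array weights gave 3763 (560 and 3203), the regularly spaced probes included gave 377 (77 and 300), and leaving out raloxifene replicate 3 gave 1543 (217 and 1326). Leaving out 1 equilin or vehicle array gave 0 to 492 in all, 0 to 73 higher and 0 to 419 lower. The remaining settings (other offsets, a stricter filter, no variance trend, 1-symbol probes only, only the arrays of both groups) were within 1.5 times of the total.

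With replicate number as a block 33 passed (14 higher, 19 lower). The numbers are those of individual rats. The deviations of same-numbered equilin and vehicle arrays correlated at -0.355, 0.171 and -0.171, and those of differently numbered ones at -0.327 to 0.394. Vehicle array 1 and vehicle arrays 2 to 4 are of different array sets, and deviations within a group depend on each other. These values therefore cannot decide whether same-numbered rats were processed together. For equilin minus estradiol benzoate the replicate block gave 2.

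Of the 55 probes named for equilin that passed, 37 passed with quantile normalisation, 14 with vehicle array 1 as the only control, 28 with only the arrays of both groups and 55 without raloxifene replicate 3; none changed sign in any setting run. For equilin minus ethinyl estradiol (25) the count was 9 without the filter, 1106 with array weights, 0 with only those arrays, 179 without raloxifene replicate 3, and 1 to 15 without 1 array. For equilin minus estradiol benzoate (0) it was 5 with quantile normalisation, 2 with a stricter filter, 2607 with array weights, 1 with only those arrays, 2 with 1-symbol probes only, 3 without raloxifene replicate 3, and 0 without any 1 array of those groups. The causes of these shifts were not tested.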
